A study of Saccharomyces cerevisiae with 8 samples.

Results

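The genes of glycine cleavage and of the tetrahydrofolate cycle around it were followed in all 8 RNA libraries of a yeast study of alkali adaptation. The set holds 9 of the 7127 genes in the deposited table of read counts, and all 9 passed the filter on low counts. They were picked by name as a pathway, with results of these same libraries already known, so their values are a description and give no independent support to any pattern. Which values had been seen is not recorded, and every comparison is treated here as one that could have been used. The study compared CRN, a *Saccharomyces cerevisiae* strain of mating type a with the markers ade2, his3 and ura3 and with the polyphosphatase gene PPN1 replaced by a TRP1 cassette, with CRN/PPN2. The latter is CRN with the centromeric plasmid pMB1, which carries URA3 and expresses the polyphosphatase gene PPN2 from the constitutive TDH3 promoter, so both strains lack PPN1. Each was grown to the late logarithmic stage either for 16 h in YPD or in YPD containing 20 mM KOH, which took 40 h (CRN) or 25 h (CRN/PPN2), with 2 libraries per group. Cells of CRN/PPN2 from the KOH medium were put straight into Trizol LS, while all others had been frozen and pressed open. Strain, medium, culture time and lysis therefore cannot be told apart for that group. Within CRN, medium and culture time (40 h with KOH, 16 h in YPD) cannot be told apart either, and a KOH effect below includes both.

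The glycine cleavage complex of mitochondria splits glycine into carbon dioxide, ammonia and a methylene group, which it loads onto tetrahydrofolate. Its P protein (encoded by GCV2) decarboxylates glycine, its H protein (GCV3) carries the intermediate on a lipoate arm, its T protein (GCV1) passes the methylene group to tetrahydrofolate, and the L protein (LPD1) reoxidizes the lipoate and also serves the pyruvate and 2-oxoglutarate dehydrogenases. Serine hydroxymethyltransferases interconvert serine and glycine with the same folate, in mitochondria (SHM1) and in the cytosol (SHM2). The folate forms are then interconverted by the NAD-dependent cytosolic dehydrogenase MTD1 and by the trifunctional synthases of mitochondria (MIS1) and cytosol (ADE3), of which the latter supplies formyl groups for purine synthesis. In yeast, the factors Bas1 and Pho2 activate purine synthesis and several of these genes when adenine is low, and Gcn4 activates many amino acid genes under starvation.

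Summed over the table, the libraries held between 3844316 and 5004823 counts, except the pair of CRN/PPN2 with KOH, which held 1559324 and 796548. Levels were scaled as CPM to the library's total over the 5430 genes that passed the filter, with TMM factors. PPN1 stood between 0 and 0.633 CPM in all libraries, and PPN2 between 206 and 220 CPM in CRN and between 5997 and 6854 CPM in CRN/PPN2, so the libraries matched their strain labels. Both CRN/PPN2 libraries with KOH stood apart in other marker sums too. The 3 alpha-specific genes (MF(ALPHA)1, MF(ALPHA)2 and STE3) summed to 31.0 and 37.9 CPM there against 2.73 to 6.54 elsewhere, the 5 a-specific genes (MFA1, MFA2, STE2, STE6 and BAR1) to 944.5 and 678 against 1179 to 1544, and 10 glucose-repressed genes to 759 and 842 against 312 to 496. Single genes did not all follow the sums. STE2, STE6 and BAR1 were lower there than elsewhere, but MFA2 had 324.5 and 108 CPM against 176 to 230, and MFA1 lay within the range elsewhere. Of the glucose-repressed sum, HXT6 alone had 371 and 428 CPM, and CYB2 lay within its range elsewhere. The part of these marker shifts in the values below was not tested. RNA per library was measured in bulk, so fewer expressing cells and less RNA per cell cannot be told apart.

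All 9 genes have 1 exon, overlap no other RefSeq gene (R64 assembly) and share no 50-base stretch with another place in the genome, so that the related pairs SHM1 and SHM2, and MIS1 and ADE3, can be separated at that length. GCV1 (YDR019C) lies at chrIV:484163-485365, GCV2 (YMR189W) at chrXIII:637500-640604, GCV3 (YAL044C) at chrI:57950-58462 and LPD1 (YFL018C) at chrVI:101628-103127. SHM1 (YBR263W) lies at chrII:736264-737736, SHM2 (YLR058C) at chrXII:257992-259401, MTD1 (YKR080W) at chrXI:590395-591357, MIS1 (YBR084W) at chrII:411054-413981 and ADE3 (YGR204W) at chrVII:905934-908774. 

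The 500 bases upstream of each start codon were searched for TGACTC on both strands (GAGTCA on the opposite one), the core of the sites that Bas1 binds and also a part of the Gcn4 site. It occurred in 7 of the 9 windows, namely 4 times each for GCV2 and SHM2, 2 times each for GCV3, LPD1 and MTD1, and once for GCV1 and ADE3. The windows of SHM1 and MIS1 held no match. Of all 6019 windows of protein-coding genes, 12.6% held at least 1 match. The match nearest to each start codon is shown with its surroundings to show the letters behind these counts. The letters run along the gene's strand, with the match in capitals.
GCV1 (chrIV:485491-485520, minus strand): gctcaggagcccTGACTCgtgttgcctcga
GCV2 (chrXIII:637249-637278, plus strand): tgactctcagagGAGTCAtcgaagtcagca
GCV3 (chrI:58542-58571, minus strand): cattcagcggcgGAGTCActttcgctaact
LPD1 (chrVI:103224-103253, minus strand): attcgtacccttTGACTCacctcgaatata
SHM2 (chrXII:259611-259640, minus strand): accataaaggttTGACTCtatctcttgggt
MTD1 (chrXI:590209-590238, plus strand): attatgatatatTGACTCagtagaaaagga
ADE3 (chrVII:905709-905738, plus strand): atatatttgccaTGACTCctcccagtgaca
These matches start 143 bases (GCV1), 239 bases (GCV2), 97 bases (GCV3), 114 bases (LPD1), 227 bases (SHM2), 174 bases (MTD1) and 213 bases (ADE3) before the start codon. A match is a description of the letters and not a shown binding site. In CRN every member called lower with KOH held a match, and so did LPD1, which did not pass the test. SHM1 and MIS1, without a match, did not pass it there either. In CRN/PPN2 every member called lower held a match, but so did MTD1 and ADE3, which did not pass. SHM1 was called higher in that strain. Whether the matches go with the change was not tested. Of the 4 matches of SHM2, 2 lie within the neighbouring gene, whose edge is 336 bases upstream.

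A longer motif that has been tied to the response of GCV genes to glycine was rare. It consists of CATC and CTTCTT with 7 bases of any kind between them, in capitals in the sites shown next. It was found on either strand in 22 of the 6019 windows (0.366%), and GCV1 and GCV2 were the only members that held it. The sites are shown because the motif is rare.
GCV1 (chrIV:485531-485559, minus strand): tttgttCATCgccgtgaCTTCTTtcggca
GCV2 (chrXIII:637197-637225, plus strand): acccgaCATCtctgactCTTCTTgaggta
They start 188 bases (GCV1) and 297 bases (GCV2) before the start codon. In GCV2 the motif contains a TGACTC match, which shares its last base with CTTCTT. The latter alone was found in 52.7% of all windows.

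In CRN, growth with KOH went with a strong reduction of the transcripts for the dedicated subunits of the glycine cleavage complex. The P protein gene GCV2 had 964.5 and 1242 CPM in YPD and 43.9 and 53.9 CPM with KOH. For the T protein gene GCV1 the values were 1124 and 1063 CPM in YPD and 52.6 and 53.7 CPM with KOH. For the H protein gene GCV3 they were 858 and 965 CPM in YPD and 104 and 116 CPM with KOH. The groups of all 3 genes were far apart, and the replicates of each group were close together. How many of all genes had groups apart was not counted, so nothing is read from such gaps here or below. On the log2 scale GCV2 fell by 4.49 ± 0.15 (SE), GCV1 fell by 4.36 ± 0.16 and GCV3 fell by 3.05 ± 0.15, that is 22.5-fold, 20.5-fold and 8.27-fold. LPD1, the subunit shared with other complexes, had 379 and 439 CPM in YPD and 309 and 347 CPM with KOH. Its groups did not overlap, but its log2 fold change of -0.32 ± 0.12 did not pass the test (adjusted p = 0.0823, edgeR quasi-likelihood test with Benjamini-Hochberg adjustment). Without CRN/PPN2 +KOH replicate 1 or 2, which are not part of this contrast but enter the estimate of the spread, its adjusted p by the same edgeR test was 0.0165 or 0.0118.

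**Figure D1:**
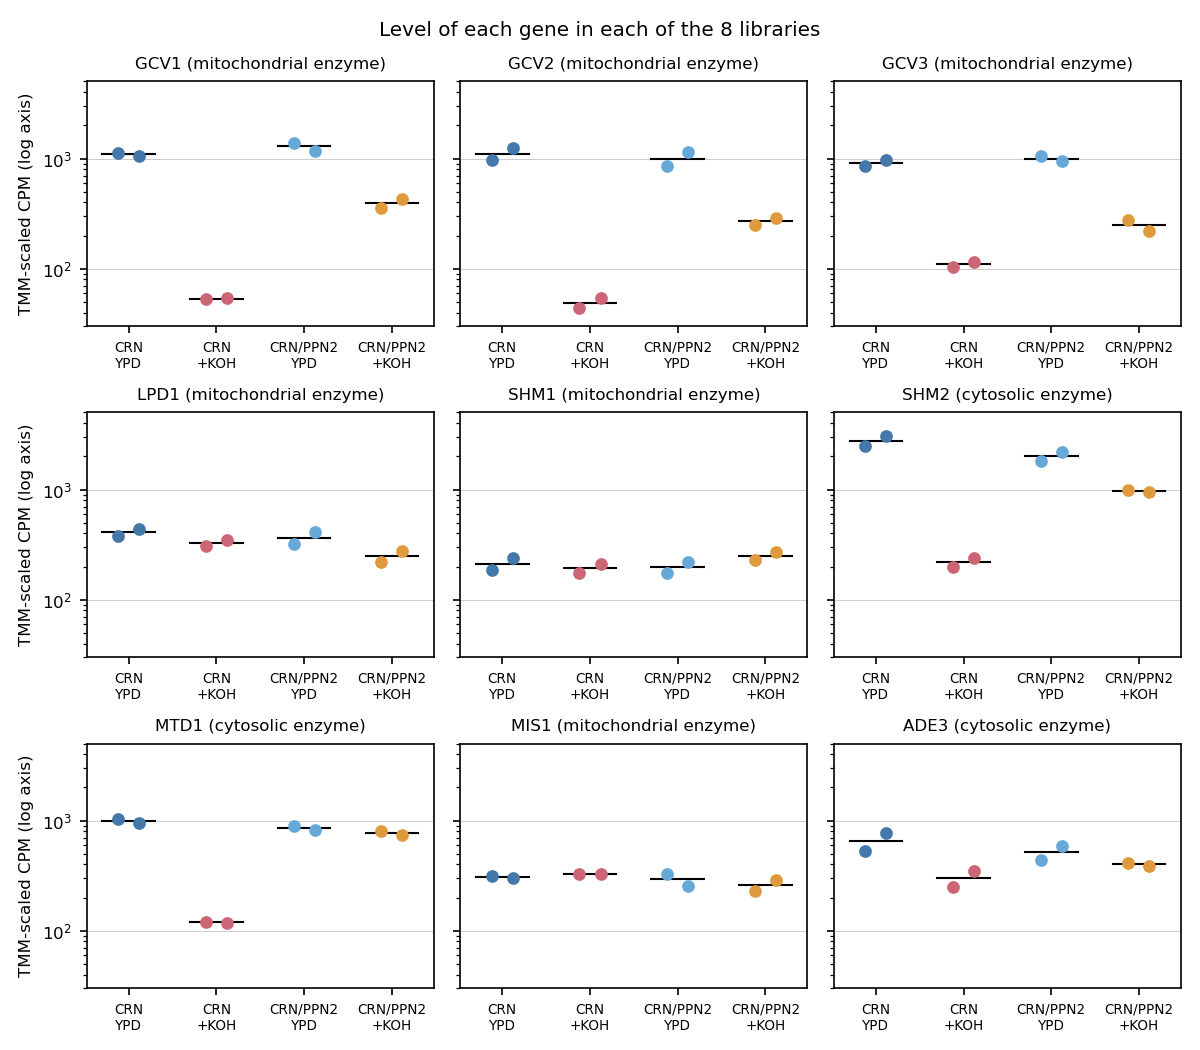
TMM-scaled CPM (log axis) of the 9 genes in the 8 libraries, with 2 points per group and a bar at their mean. GCV1, GCV2, GCV3, SHM2 and MTD1 are lowest in CRN with KOH, with GCV2 at 43.9 and 53.9 CPM, whereas SHM1 spans 173 to 272 CPM and MIS1 230 to 329 CPM over the 8 libraries, and LPD1 is lowest in CRN/PPN2 with KOH, at 221 and 279 CPM.

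The cytosolic branch fell in CRN as well, while its mitochondrial counterparts stayed near their level in YPD. SHM2, whose transcript had the highest mean level per length of the 9 in CRN in YPD, had 2467 and 3063 CPM in YPD and 199 and 241 CPM with KOH. MTD1 had 1043 and 950 CPM in YPD and 120 and 118 CPM with KOH. ADE3 had 533 and 763 CPM in YPD and 249 and 347 CPM with KOH. For each of these 3 cytosolic enzymes both libraries with KOH lay below both in YPD, a gap not counted over all genes. SHM2 fell by 3.65 ± 0.15 on the log2 scale, MTD1 fell by 3.07 ± 0.14 and ADE3 fell by 1.12 ± 0.14. By contrast, the mitochondrial SHM1 had 187 and 239 CPM in YPD and 176 and 211 CPM with KOH, with overlapping groups and a log2 fold change of -0.13 ± 0.11. MIS1 had 317 and 303 CPM in YPD and 324.5 and 326 CPM with KOH, and its log2 fold change was 0.07 ± 0.14. Neither of these mitochondrial genes passed the test.

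Thus 6 of the 9 genes were called lower with KOH in CRN, at an adjusted p under 0.05 over all 5430 genes tested, and the other 3 were not called. Of all these genes, 7.61% were called lower and 7.53% higher, and nothing is read from this difference because the genes had been picked with results known. Sorted by log2 fold change from the lowest, GCV2 was at rank 1, GCV1 at rank 2, SHM2 at rank 3, MTD1 at rank 7 and GCV3 at rank 8, with ADE3 at rank 77. LPD1 followed at rank 767, SHM1 at rank 1661 and MIS1 at rank 3139. The median log2 fold change of the 9 genes was -3.05, against 0.01 for all genes. The members together took 0.779% and 0.858% of all counts in CRN in YPD and 0.154% and 0.173% with KOH.

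**Figure D2:**
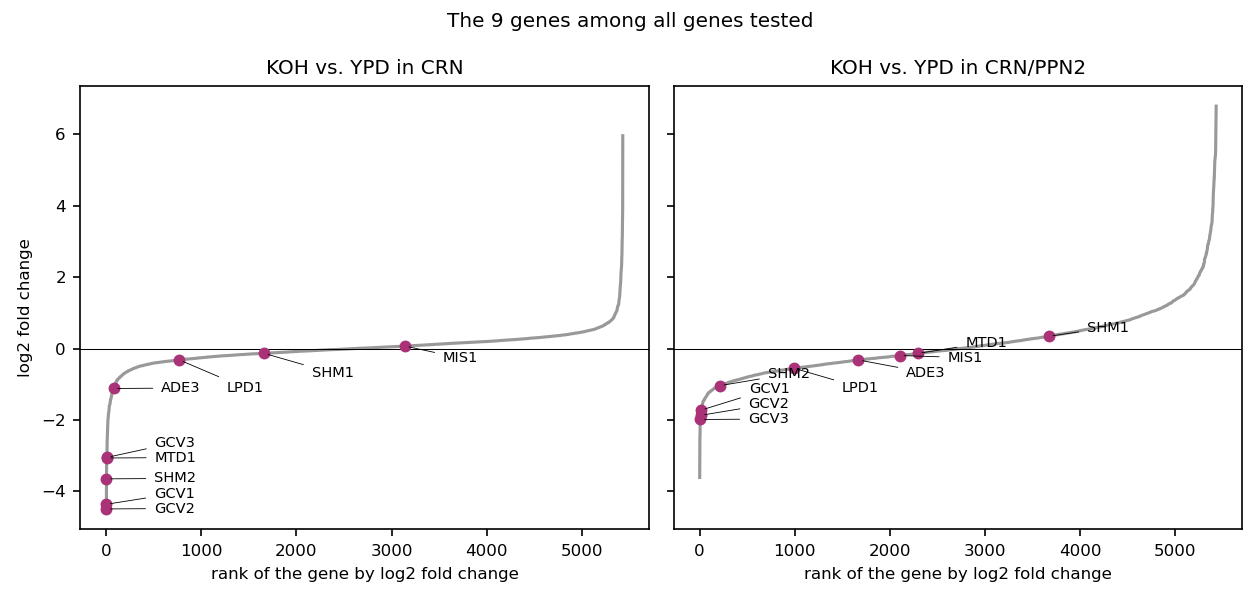
Log2 fold change of all 5430 genes tested (grey line) against their rank, for KOH vs. YPD in CRN (left) and in CRN/PPN2 (right), with the 9 genes as points. In CRN, 5 of them are among the 8 lowest ranks, and in CRN/PPN2 GCV3 is at rank 8, GCV2 at rank 11 and GCV1 at rank 16.

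In CRN/PPN2 the dedicated subunits also fell with KOH, but to an intermediate level. GCV1 had 1394 and 1179 CPM in YPD and 354 and 429 CPM with KOH, a log2 fold change of -1.72 ± 0.15. GCV2 had 854 and 1134 CPM in YPD and 252 and 286 CPM with KOH, a log2 fold change of -1.87 ± 0.13. GCV3 had 1050 and 945 CPM in YPD and 278 and 220.5 CPM with KOH, a log2 fold change of -1.99 ± 0.15. In each case both libraries with KOH lay below both in YPD and above both CRN libraries with KOH. These gaps were not counted over all genes either. LPD1 fell modestly, from 318 and 415 CPM to 221 and 279 CPM, with a log2 fold change of -0.55 ± 0.13. 

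Of the folate enzymes, SHM2 fell in CRN/PPN2 with KOH and MTD1 did not pass the test. SHM2 had 1825 and 2198 CPM in YPD and 982.5 and 958 CPM with KOH, a log2 fold change of -1.04 ± 0.14. MTD1 had 883 and 812 CPM in YPD and 800 and 742 CPM with KOH. The MTD1 groups lay next to each other without overlap, and the log2 fold change was -0.14 ± 0.13. ADE3 had 434 and 592 CPM in YPD and 412 and 388 CPM with KOH, so that its groups did not overlap, but its log2 fold change of -0.32 ± 0.15 did not pass the test. That of ADE3 was -0.60 and passed it without CRN/PPN2 +KOH replicate 1, and was -0.05 without CRN/PPN2 +KOH replicate 2. SHM1 had 173 and 221 CPM in YPD and 227 and 272 CPM with KOH, and its log2 fold change of 0.34 ± 0.12 passed it narrowly. The call of SHM1 was lost without either library in YPD of CRN or of CRN/PPN2 and without CRN/PPN2 +KOH replicate 1 (0.317 to 0.356). It was also lost with no replicate block, upper quartile factors, no filter and the 4 libraries alone, and held in 8 of 17 alternatives. MIS1 had 329 and 256 CPM in YPD and 230 and 286 CPM with KOH, with overlapping groups. Its log2 fold change of -0.19 ± 0.15 did not pass the test, but was -0.40 and passed it without CRN/PPN2 +KOH replicate 2, and it changed sign between the replicates (-0.51 within replicate 1 and 0.16 within replicate 2).

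In this strain 5 of the 9 genes were called lower and 1, SHM1, was called higher. All genes were called often here, with 25.5% lower and 29.2% higher, and nothing is read from the members' count. GCV3, GCV2 and GCV1 were at ranks 8, 11 and 16 from the lowest log2 fold change, SHM2 at rank 215 and MTD1 at rank 2294. The median of the 9 genes was -0.55, against -0.01 for all genes. Together they took 0.747% and 0.789% of the counts in YPD and 0.381% and 0.409% with KOH.

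**Figure D3:**
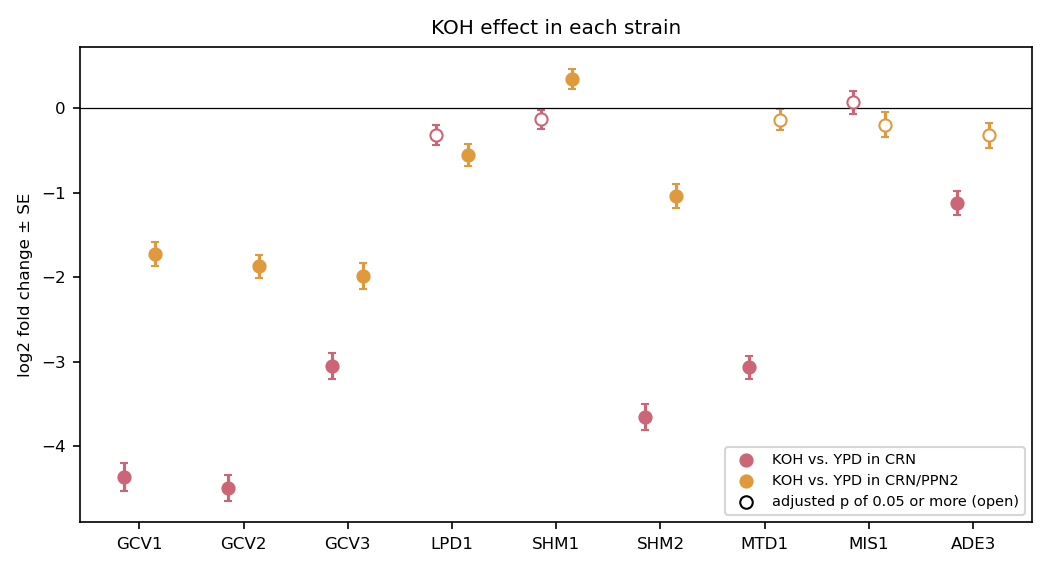
Log2 fold change with its SE for KOH vs. YPD in CRN and in CRN/PPN2. Filled points had an adjusted p under 0.05 (edgeR, over all genes tested). GCV1, GCV2, SHM2 and MTD1 differ by more than 2 log2 units between the strains, and for GCV3 the values are -3.05 in CRN and -1.99 in CRN/PPN2.

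Whether KOH acted differently in the 2 strains was tested as an interaction term over all 8 libraries, so it shares them with the other comparisons. It passed for 7 of the 9 genes, all with a weaker fall or a higher value in CRN/PPN2. Over all genes, 22.2% passed with a positive difference and 17.6% with a negative one, and nothing is read from the members' count. The difference was 2.93 ± 0.18 on the log2 scale for MTD1, 2.64 ± 0.21 for GCV1, 2.62 ± 0.19 for GCV2 and 2.61 ± 0.20 for SHM2. It was smaller for GCV3, at 1.06 ± 0.21, for ADE3, at 0.80 ± 0.21, and for SHM1, at 0.48 ± 0.17. LPD1 (-0.24 ± 0.17) and MIS1 (-0.26 ± 0.20) did not pass. The call of SHM1 was lost without any 1 of the 6 libraries other than CRN/PPN2 with KOH (edgeR, Benjamini-Hochberg adjusted p between 0.0771 and 0.162). That of ADE3 was lost without CRN YPD replicate 2 or CRN +KOH replicate 1 (adjusted p = 0.058 and 0.0613 by the same edgeR test). MIS1 passed without CRN/PPN2 +KOH replicate 2, with a difference of -0.46, while its difference was 0.05 within replicate 2 and -0.55 within replicate 1. CRN had been in KOH for 40 h and CRN/PPN2 for 25 h, so the strains cannot be told apart from the culture times here.

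In YPD, the strains differed little in these genes. Of the 9 genes, 0 were called by edgeR's quasi-likelihood test, where 4.13% of all genes were called higher and 2.38% lower. At an unadjusted p under 0.05 there were 2 of the 9, SHM2 and ADE3, and 1062 of all 5430 genes. DESeq2 called 1 member, SHM2, and 237 of all genes, and nothing is read from these counts. The log2 fold changes of CRN/PPN2 vs. CRN ranged from -0.46 ± 0.14 for SHM2 to 0.23 ± 0.14 for GCV1. SHM2 was lower in both libraries of CRN/PPN2, at 1825 and 2198 CPM against 2467 and 3063 CPM, and was next to the threshold (adjusted p = 0.0556 by edgeR with Benjamini-Hochberg adjustment). Without either CRN/PPN2 library with KOH, which are not in this contrast, SHM2 passed the same edgeR test (adjusted p = 0.000651 and 0.000576), and so did ADE3, at -0.33 in each case (adjusted p = 0.012 and 0.0126). 

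With KOH, the strains stood far apart. GCV1 was 7.32-fold higher in CRN/PPN2 than in CRN, MTD1 6.48-fold, GCV2 5.54-fold, SHM2 4.45-fold and GCV3 2.28-fold, with an SE of 0.14 to 0.16 on the log2 scale. For these 5 genes the lower CRN/PPN2 library exceeded the higher CRN library, a gap not counted over all genes, and nothing is read from it. ADE3 (0.47 ± 0.15) and SHM1 (0.37 ± 0.12) were called higher and LPD1 (-0.40 ± 0.13) lower, while MIS1 (-0.35 ± 0.15) did not pass. In all, 7 members were called higher and 1 lower, where 30.8% of all genes were called higher and 25.9% lower, and nothing is read from this count either. The small differences depended on single libraries and, for some genes, on the scaling and the filter. LPD1 was no longer called without CRN +KOH replicate 1 (-0.33) or CRN/PPN2 +KOH replicate 1 (-0.34). The call of SHM1 was lost without CRN +KOH replicate 1 (0.40) or 2 (0.33). ADE3 lost its call without CRN +KOH replicate 1 (0.38), CRN +KOH replicate 2 (0.54) or CRN/PPN2 +KOH replicate 1 (0.19). MIS1 was called without CRN/PPN2 YPD replicate 1 (-0.35) or 2 (-0.36) or without CRN/PPN2 +KOH replicate 2 (-0.54), and was at -0.09 without CRN/PPN2 +KOH replicate 1. It was also called with RLE factors, upper quartile factors, no filter, filterByExpr, ComBat-seq counts and thinning, so that it passed in 9 of 17 alternatives. Without the replicate block, 5 members were called, namely GCV1, GCV2, GCV3, SHM2 and MTD1, where 2678 of all 5430 genes were.

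Ratios of a pair of members within a library do not depend on how the library is scaled. Per kb of coding length, SHM2 had 13.8 and 13.4 times the counts of its mitochondrial relative SHM1 in CRN in YPD, and 1.18 and 1.19 times with KOH. In CRN/PPN2 this ratio was 11.0 and 10.4 in YPD and 4.52 and 3.69 with KOH. The cytosolic excess of serine hydroxymethyltransferase transcript was thus nearly gone in CRN with KOH and reduced in CRN/PPN2. For the trifunctional synthases, ADE3 over MIS1, the ratio was 1.73 and 2.60 in CRN in YPD and 0.790 and 1.10 with KOH, whereas in CRN/PPN2 it was 1.36 and 2.38 in YPD and 1.84 and 1.40 with KOH, with overlapping groups. 

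Within the glycine cleavage complex, the subunits lost their proportion to the shared subunit. GCV2 had 1.23 and 1.37 times the counts per kb of LPD1 in CRN in YPD and 0.0685 and 0.0751 times with KOH. In CRN/PPN2 the ratio of GCV2 to LPD1 was 1.30 and 1.32 in YPD and 0.551 and 0.495 with KOH. GCV1 over LPD1 moved from 3.70 and 3.02 to 0.212 and 0.193 in CRN, and from 5.47 and 3.54 to 2.00 and 1.92 in CRN/PPN2. For each of these ratios the groups with and without KOH were apart in both strains.

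**Figure D4:**
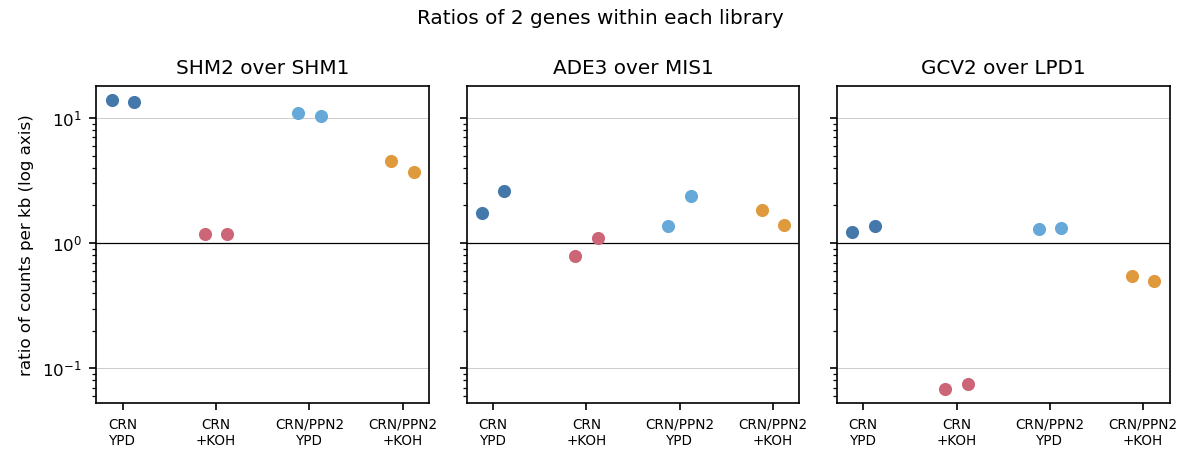
Ratio of the counts per kb of coding length of 2 genes within each library (log axis, line at 1), for SHM2 over SHM1, ADE3 over MIS1 and GCV2 over LPD1. GCV2 over LPD1 is 0.0685 and 0.0751 in CRN with KOH and 1.23 or more in the 4 libraries in YPD.

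The order of the mean levels per kb of coding length also differed between media in CRN. In CRN in YPD it ran from SHM2 (1961 CPM per kb) and GCV3 (1776), whose libraries overlapped, over MTD1 (1035), GCV1 (909) and GCV2 (355) to LPD1 (273), ADE3 (228), SHM1 (144) and MIS1 (106). The libraries of LPD1 and ADE3 overlapped, and the other neighbours in the order did not. In CRN with KOH, LPD1 (219 CPM per kb) and GCV3 (215) came first with overlapping libraries. They were followed by SHM2 (156), SHM1 (131), MTD1 (123), MIS1 (111) and ADE3 (105), and GCV1 (44.2) and GCV2 (15.7) came last. There SHM2 and SHM1 overlapped, as did SHM1 and MTD1, and MIS1 and ADE3. The order was another one in CRN/PPN2 with KOH, where MTD1 (801 CPM per kb) and SHM2 (688) came first. MIS1 (88.1) and GCV2 (86.6) came last in that group, with overlapping libraries. Counts per kb of poly(A) RNA can also differ between genes through coverage along the transcript, so this order is approximate.

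The genes with the profile most like the mean of GCV1, GCV2 and GCV3 were sought among the other 5427 genes. Likeness was measured as the root mean square difference of the log2 CPM after centring each gene on its mean over the 8 libraries. SHM2 was the nearest (0.349), followed by ADE17 (0.455), which carries out the last steps of purine synthesis, and ADE1 (0.633), another enzyme of that pathway. Next came IMD2 (0.695) of guanine nucleotide synthesis, MTD1 (0.698), SNO1 (0.764) of vitamin B6 synthesis, ADE2 (0.887) and PRY1 (0.888), which encodes a secreted sterol-binding protein. ADE17 had 3476 and 3362 CPM in CRN in YPD and 394 and 377 CPM with KOH, and 2949 and 2808 CPM in CRN/PPN2 in YPD and 1427 and 1518 CPM with KOH. It thus had the same order of groups as SHM2. Of the other members, ADE3 was at rank 70, LPD1 at rank 739, SHM1 at rank 2052 and MIS1 at rank 2826. The 8 points of a profile share only 4 groups, and the ranking is a description.

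The neighbouring pathways were described from lists written with earlier results of these data known. The purine synthesis list without ADE3 held 10 genes, of which 9 were called lower with KOH in CRN, with a median log2 fold change of -1.87, and all 10 in CRN/PPN2, with a median of -0.78. Of all genes, 7.61% and 25.5% were called lower in these comparisons. In CRN, ADE17 fell by 3.15 ± 0.14 on the log2 scale, ADE1 fell by 2.64 ± 0.16 and ADE4, the gene of the committed step, fell by 2.10 ± 0.13. ADE16, the isozyme of ADE17, was the exception in CRN at -0.02. The interaction passed for 8 purine genes, positive for 7 and, for ADE16, negative, where 22.2% of all genes passed with a positive and 17.6% with a negative difference. Both strains carry the ade2 marker, and ADE2 RNA was counted in all 8 libraries.

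The list of serine and glycine metabolism held 7 genes. With KOH in CRN, the 4 serine synthesis genes SER1, SER2, SER3 and SER33 were called lower and the catabolic CHA1 higher (7.61% and 7.53% of all genes). In CRN/PPN2, 4 genes were called lower and 2, CHA1 and SER3, higher (25.5% and 29.2% of all genes). SER1, the phosphoserine aminotransferase, had 795 and 778 CPM in CRN in YPD and 305 and 290 CPM with KOH. SER3, a phosphoglycerate dehydrogenase that starts serine synthesis, fell in CRN (-1.09 ± 0.15) and rose in CRN/PPN2 (1.79 ± 0.15), and this difference passed the interaction test (2.89 ± 0.21). CHA1, the catabolic deaminase of serine and threonine, rose in both strains, from 62.5 and 71.3 to 439 and 487 CPM in CRN and from 48.6 and 52.8 to 168 and 220.5 CPM in CRN/PPN2. GLY1, the threonine aldolase that makes glycine, fell in CRN/PPN2 and did not pass in CRN.

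**Figure D5:**
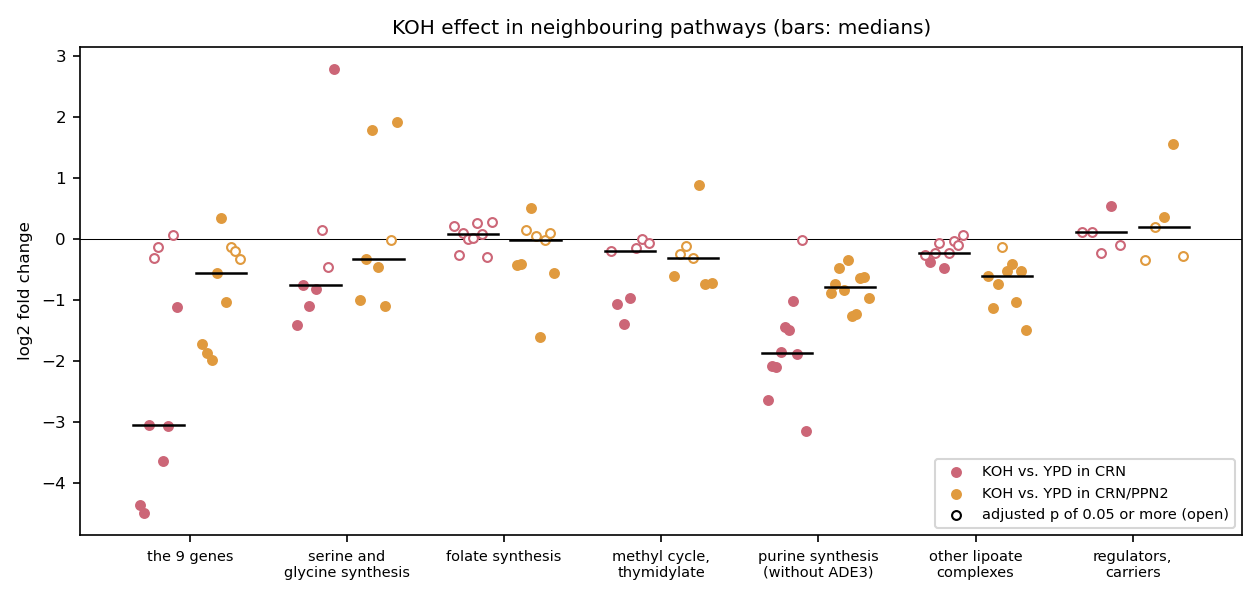
Log2 fold change of each gene for KOH vs. YPD in CRN and in CRN/PPN2, by list, with bars at the medians and filled points for an adjusted p under 0.05 (edgeR, over all genes tested). The 9 genes have medians of -3.05 and -0.55, the purine genes of -1.87 and -0.78, and the folate synthesis genes of 0.09 and -0.02.

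The genes that make the folate cofactor itself had a median log2 fold change of 0.09 with KOH in CRN, and FOL2, the GTP cyclohydrolase, had the smallest adjusted p of the 9 that were tested (0.157, edgeR with Benjamini-Hochberg adjustment). In CRN/PPN2, 4 of these 9 were called lower and 1 higher, where 25.5% and 29.2% of all genes were. DFR1, the dihydrofolate reductase, had 42.9 and 37.1 CPM in CRN/PPN2 in YPD and 14.6 and 10.7 CPM with KOH. The latter 2 values rest on only 23 and 9 counts. In the methyl cycle, 3 of 7 genes were called lower in CRN (7.61% of all genes), with MET6, the methionine synthase that uses methyl-tetrahydrofolate, at -1.39 ± 0.14. MET6 did not pass in CRN/PPN2 (-0.11), and the difference between strains passed (1.29 ± 0.19).

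The list of the other lipoate-dependent complexes, which share LPD1, and of lipoylation held 9 genes. Of these, 2 were called lower in CRN, with a median of -0.23, and 8 in CRN/PPN2, with a median of -0.61, where 7.61% and 25.5% of all genes were called lower. PDB1, a subunit of pyruvate dehydrogenase, had log2 fold changes of -0.38 ± 0.12 (CRN) and -1.13 ± 0.14 (CRN/PPN2), and the interaction passed for 4 of these genes, all negative (17.6% of all genes). Among the regulators, BAS1 had 53.9 and 60.0 CPM in CRN in YPD and 57.1 and 66.2 CPM with KOH. In CRN/PPN2 with KOH it had 39.2 and 49.8 CPM and was called lower than in CRN with KOH (-0.47 ± 0.18). PHO2 was not called in any comparison, and GCN4 rose in CRN/PPN2 (0.36 ± 0.14) and did not pass in CRN, and the difference between the strains passed (0.58 ± 0.20). HEM25, the carrier that brings glycine into mitochondria, rose in CRN (0.54 ± 0.15) and in CRN/PPN2 (1.56 ± 0.15). It had 29.3 and 30.5 CPM in CRN in YPD and 106.9 and 114 CPM in CRN/PPN2 with KOH. Transcript levels of regulators say nothing of their activity.

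TGACTC was then counted over the genes called in each KOH comparison, with no test. In CRN it occurred upstream of 141 of the 411 genes called lower that had a window (34.3%) and of 33 of the 400 called higher (8.25%), against 13.1% of all genes tested. In CRN/PPN2 it occurred upstream of 15.5% of the genes called lower and 11.7% of those called higher. The longer glycine motif occurred upstream of 0.394% of all genes tested and of 0.487% of those called lower in CRN (2 genes, GCV1 and GCV2). In CRN/PPN2 it occurred upstream of 0.509% of the genes called lower (7 genes) and 0.196% of those called higher (3 genes).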

How the data were processed

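Poly(A) RNA of 4 groups with 2 libraries each was sequenced as stranded libraries. The authors mapped the reads with STAR 2.7.6a to R64-1-1 with Ensembl gene models and deposited whole-number counts per gene for 7127 genes, not normalized and not corrected for batch. The strand setting of the counting is not given in the sources used here. Every column belongs to 1 sample.

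Genes at 10 CPM or more in at least 2 libraries were kept, which left 5430. In R 4.3.3, edgeR 4.0.16 was run on the counts with TMM factors and the quasi-likelihood test, on a model of the 4 groups plus replicate (the block), and p-values were adjusted by Benjamini-Hochberg over all genes tested (threshold 0.05). SE is the absolute log2 fold change over the square root of F, and levels are TMM-scaled CPM (n = 2 per group). The paper's methods name the replicate number as a batch of preparation and sequencing, and replicate differences correlated between groups with r from 0.099 to 0.504 across genes. No source says that replicates came from separate cultures, so p-values measure the spread between these libraries, which may be technical. The SD between replicates was 0.152 to 0.294 (log2), more than sampling noise. The fit was also run on simulated counts with the same dispersion for every gene and no replicate effect. These libraries do not have that form, so the run does not measure how the fit does here.

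The members and all lists were chosen with earlier results of these data known, and the motifs too. The naming rule took all 9 members, and of each other list up to 3 genes with the smallest adjusted p per comparison, as well as the 8 genes nearest to the mean GCV profile. ADE16, PHO2 and the MET6 value in CRN/PPN2 were added after values were seen. PPN2 is listed in the table by its systematic name only (YNL217W). Coordinates and upstream sequence came from RefSeq R64, where 6047 of the table's 7127 identifiers matched. Protein sequences were not used here. Alternatives were ComBat-seq (sva 3.50.0), DESeq2 1.42.0, the model with no block, RLE factors, upper quartile factors, filterByExpr, all genes unfiltered, thinning, the 4 libraries of a contrast alone and leaving out each library. Leaving out both CRN/PPN2 libraries with KOH was added after the data were seen. Tables and figures were made in Python 3.11.15.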

Additional observations from a re-analysis of the deposited data

Results flagged for a closer look

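The KOH effect differed between CRN and CRN/PPN2 for 7 of the 9 genes in the interaction test of edgeR. Of all genes, 22.2% passed with a positive difference and 17.6% with a negative one, and nothing is read from the members' count. On the log2 scale, CRN/PPN2 minus CRN, the difference was 2.93 for MTD1, 2.64 for GCV1, 2.62 for GCV2, 2.61 for SHM2, 1.06 for GCV3, 0.80 for ADE3 and 0.48 for SHM1. The calls of SHM1 and ADE3 were lost under other settings (10 of 16 for SHM1 and 3 of 16 for ADE3), whereas those of the other 5 genes held under all 16 that were run. With KOH, strain, culture time and lysis cannot be told apart.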

How the results depend on the processing

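The calls of GCV1, GCV2, GCV3, SHM2 and MTD1 in the KOH comparison in CRN, in the strain comparison with KOH and in the interaction held under every setting run, as did those of GCV1, GCV2, GCV3, SHM2 and LPD1 in the KOH comparison in CRN/PPN2. The call of ADE3 in the KOH comparison in CRN held too, whereas small differences did not. Without the replicate block, 5 members were called with KOH between strains, where 2678 of all 5430 genes were called (against 3077). With the block, 30.8% of all genes were called higher and 25.9% lower between strains with KOH. Nothing is therefore read from the members' counts with KOH between strains, whether all libraries are used or 1 is left out. In the other comparisons the all-gene count without the block was 132 (YPD, against 353) and 362 (KOH in CRN, against 822). In YPD, 1 member was called by DESeq2, with no filter and with ComBat-seq counts, and 2 with the 4 libraries alone or without both CRN/PPN2 libraries with KOH. The all-gene count in YPD was 237 with DESeq2, 413 with no filter, 552 with ComBat-seq and 132 thinned. It was 868 with the 4 libraries alone and 786 without both CRN/PPN2 libraries with KOH. For KOH in CRN it was 530 with DESeq2, 348 thinned, 1728 with the 4 libraries alone and 1382 without those libraries, and for the interaction 1283 thinned, against 2156. Leaving out 1 library gave 0 to 2 members and 98 to 801 genes in YPD, 5 to 9 members with KOH between strains, and 202 to 1412 genes for KOH in CRN (fewest without CRN +KOH replicate 2, most without CRN/PPN2 +KOH replicate 1). Leaving out 1 library changed the sign of values that were not called, namely GCV3 in YPD (-0.006 to 0.265), MIS1 in YPD (-0.308 to 0.113) and MIS1 with KOH in CRN/PPN2 (-0.414 to 0.072), and within replicate 2 the MIS1 interaction was 0.054. The causes were not tested. Upper quartile factors moved the median of all genes by -0.11, -0.10 and -0.11 in the contrasts with CRN/PPN2 +KOH. The shallow CRN/PPN2 libraries with KOH, where a member had 186 to 1553 counts, limit what small differences can be seen.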

Other observations

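When the CRN/PPN2 libraries with KOH were left out of the search for like profiles, 6 of the 8 nearest genes were shared with the search over all libraries, and SNZ1 came to rank 3 after SNO1 at rank 2. Both take part in vitamin B6 synthesis, and pyridoxal phosphate is the cofactor of GCV2 and of the serine hydroxymethyltransferases. SNZ1 had 534 and 561 CPM in CRN in YPD and 66.2 and 55.7 CPM with KOH, but 558 and 471 CPM in CRN/PPN2 in YPD and 874 and 894 CPM with KOH. With KOH it was thus low in CRN and above its YPD level in CRN/PPN2, unlike the GCV genes, which were below their YPD level in both strains. ARG1, the argininosuccinate synthetase, was at rank 8 in this search, with 1059 and 1341 CPM in CRN in YPD and 196 and 246 CPM with KOH. These genes were named after their values were seen.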
